A study of Mus musculus with 14 samples.

Results

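In bulk RNA-Seq of murine esophagus, 60 of the 55291 gene symbols counted encode enzymes of glutathione and antioxidant defense or their 2 main regulators. The rule matches symbols: the glutathione transferases of the alpha, mu, pi, theta, kappa, omega and zeta classes (22 genes), the microsomal glutathione transferases (3), the glutathione peroxidases (8), the peroxiredoxins with sulfiredoxin (7), the superoxide dismutases with catalase (4), the thioredoxins with their reductases (5), the genes of glutathione supply and reduction (5), the quinone reductases with the heme oxygenases (4), and Nfe2l2 with Keap1 (2). RNA came from C57BL/6 mice that were aged (18 months or older) or young (4 months or younger), and the labels name neither a genetic change nor a treatment. Epithelium, enriched by peeling away the muscle layers, was sequenced from 5 aged mice (O1, O2, O3, OF5 and OM8) and 4 young mice (Y1, Y3, YF5 and YM4). Stroma was sequenced from 5 of these animals, the aged O1, O2 and O3 and the young Y1 and Y3. The 4 mice whose codes carry a sex letter had no stromal sample.

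Glutathione is a small thiol that cells make from cysteine, glutamate and glycine. Peroxidases and peroxiredoxins reduce peroxides at the expense of glutathione or thioredoxin, and glutathione transferases couple glutathione to reactive lipid and foreign molecules. The transcription factor Nrf2, encoded by Nfe2l2, raises many of these genes after binding antioxidant response elements, and Keap1 directs Nrf2 to degradation. The esophageal lining meets swallowed heat, alcohol and chemicals and is renewed from a basal layer of keratinocytes.

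Total counts ranged from 8217516 to 21867101 per sample, and counts in protein-coding genes from 6665526 to 11067322 in the 10 samples of O1, O2, O3, Y1 and Y3 but from 1042394 to 1433857 in the 4 epithelial samples with a sex letter. The summed level of 6 basal keratinocyte markers was 838 to 2513 normalized counts in epithelium and 14.9 to 63.5 in stroma, and that of 8 skeletal muscle markers was 155 to 1464 in epithelium and 35935 to 67012 in stroma. The striated muscle of the murine esophageal wall was thus mainly in the stroma, and keratinocyte markers were low there. The summed level of 6 fibroblast markers was 280 to 632 in epithelium and 415 to 1031 in stroma. That of 5 smooth muscle markers was 333 to 835 in epithelium and 303 to 2051 in stroma. Both sums overlapped between the layers, so the epithelial samples were not free of RNA from these cell types. Normalized counts are CPM on a library size adjusted by the trimmed mean of M-values (TMM) over all 14 samples, unless an age comparison is named. Xist counts were 1089 to 4923 in 6 samples (both layers of O3 and Y3, and OF5 and YF5) and 0 to 46 in the other 8, which places female mice in both age groups.

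Together the 60 genes took 0.624% to 0.749% of the protein-coding counts in the 5 epithelial samples of mice with both layers, 0.355% to 0.407% in the 4 epithelial samples with a sex letter and 0.226% to 0.305% in stroma. All 9 epithelial shares lay above the 5 stromal shares. In bulk tissue, fewer cells of a type and less RNA per cell cannot be told apart.

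The first question was which of these genes distinguished epithelium from stroma. Of the 60, 56 passed the filter on low counts, and 45 of these (80.4%) were called at an adjusted p under 0.05 (edgeR quasi-likelihood test, Benjamini-Hochberg over 16791 genes), beside 56.2% of all genes tested. In epithelium 25 of the 56 members were higher, beside 26.1% of all genes called higher. Of the 56, 20 were lower, beside 30.1% called lower. The median log2 fold change of the 56 was -0.30, beside -0.05 over all genes tested, with 27 members above 0 and 29 below. This fit includes the 4 shallow epithelial samples with a sex letter. With mouse as a block in the 10 paired samples, the median over all genes was 0.14, and that of the members was not taken. The members were thus split between the layers, and the log2 fold changes ran from 6.11 (Gpx2) to -4.32 (Gstm7). The 9 epithelial samples lay above all 5 stromal samples for 15 of the 56 members, beside 14.4% of all genes tested. They lay below them for 11 of the 56, beside 16.9%. Within the 10 samples of mice that gave both tissues, which share one form of code, 43 members were called, 25 of them higher, beside 56.2% of 16713 genes called in either direction in that fit. Gpx5, Gpx6, Gstp3 and Gstt4 were not tested and had at most 21 counts in any sample.

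**Figure D1:**
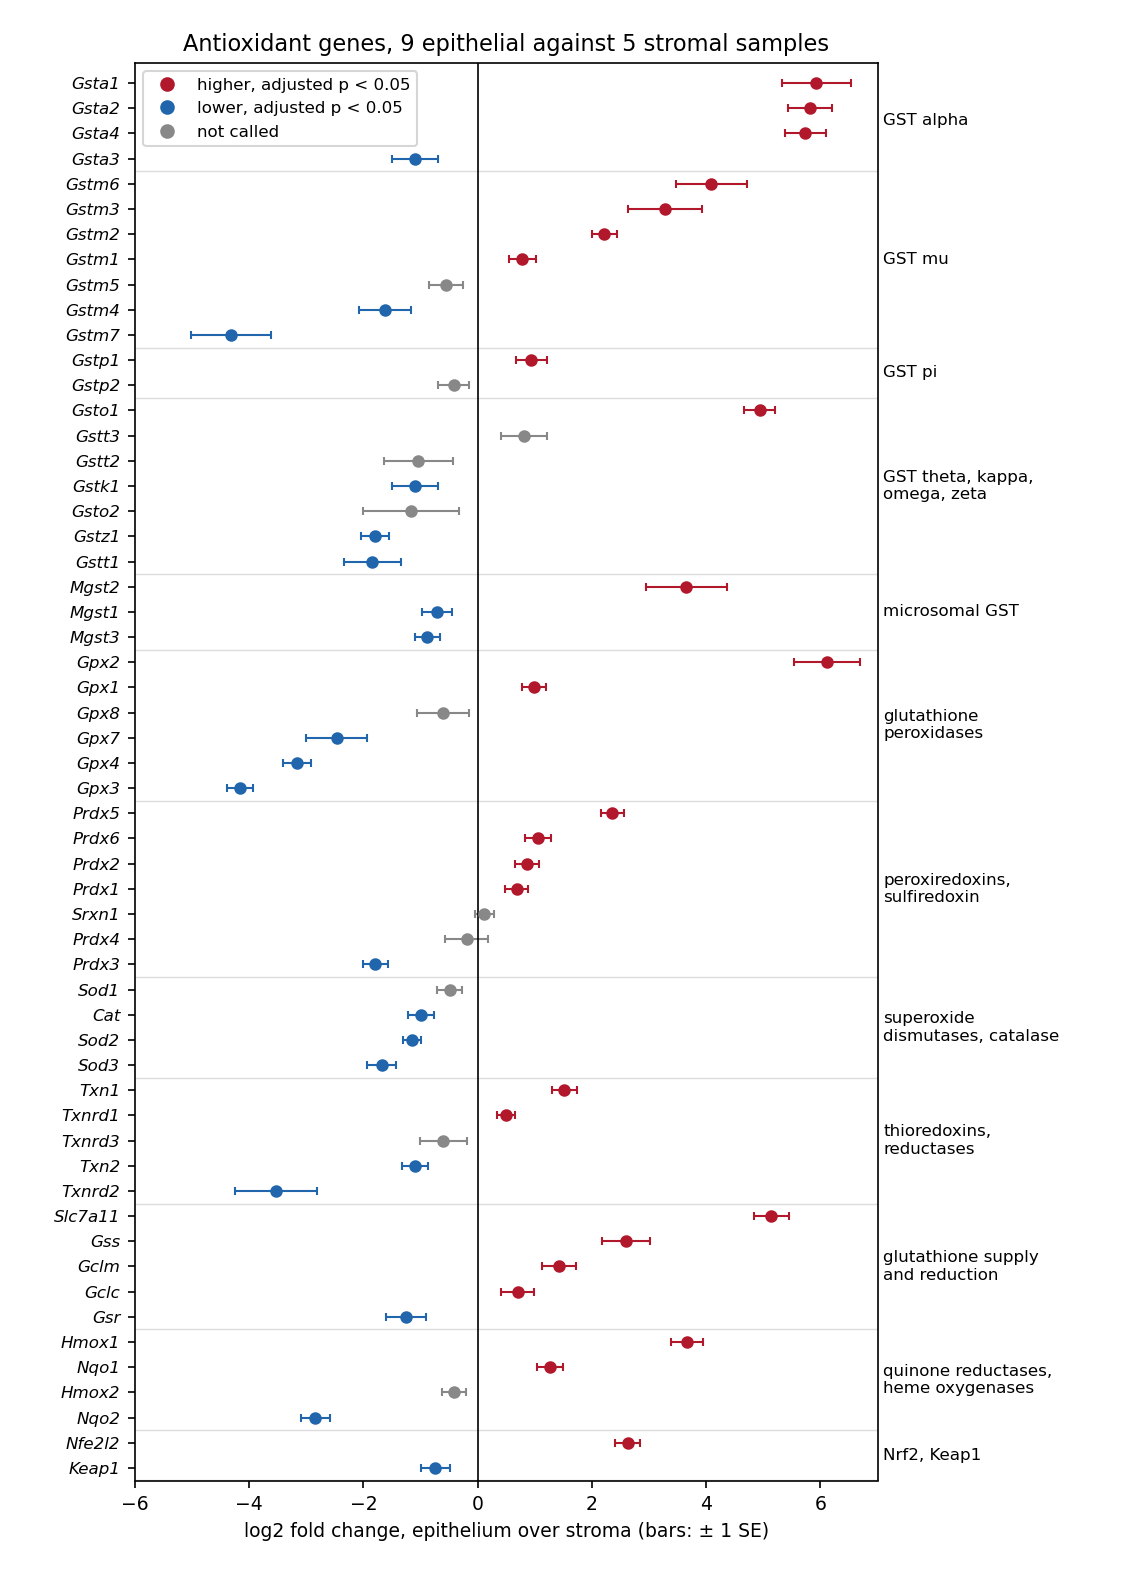
Log2 fold change of epithelium over stroma for the 56 members tested, grouped by role (GST, glutathione transferase), with bars of 1 SE. Red and blue points were called higher and lower at an adjusted p under 0.05 and grey points were not called. The transferases, peroxidases and peroxiredoxins hold members on both sides of 0, from Gpx2 at 6.11 to Gstm7 at -4.32.

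Nfe2l2 was 86.8, 127 and 167 normalized counts (lowest, median and highest) in the 9 epithelial samples. In stroma it was 20.7 in O1, 24.3 in O2, 14.6 in O3, 24.6 in Y1 and 22.8 in Y3. Epithelium lay wholly above stroma, with a log2 fold change of 2.62 (SE 0.22, adjusted p = 2.97e-09). Keap1 was 2.76, 9.42 and 12.3 in epithelium and 21.6, 14.9, 9.75, 15.6 and 13.4 in the stroma of O1, O2, O3, Y1 and Y3, so that the layers overlapped. Its log2 fold change was -0.74 (SE 0.25, adjusted p = 0.0159), and with mouse as a block in the 10 paired samples it was -0.49 with an adjusted p of 0.119. Without O1 the adjusted p of Keap1 was 0.077. Messenger RNA of the regulator and of its inhibitor therefore differed between the layers in opposite directions, and in the paired fit only that of Nfe2l2 passed the threshold.

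The core of the antioxidant response element, TGACNNNGC on either strand, was searched in promoters from RefSeq (GRCm38.p6), each a window from 250 bases before to 50 after a gene's start. Promoters of 53 members were in the table, and 10 of them (18.9%) held the core in any window, beside 14% of 27025 genes. The 10 were Gclm, Gsta3, Gstm5, Gstm7, Mgst1, Nfe2l2, Prdx1, Sod1, Srxn1 and Txnrd1, of which 4 were called higher in epithelium, 3 lower and 3 in neither direction. Of the 43 members without it in these windows, 17 were called higher and 15 lower, 7 were not called and 4 were not tested. Sequence outside the windows was not searched, so these members may hold the core elsewhere. Over all genes tested, 26.1% were called higher and 30.1% lower. Stretches of 5 genes are printed to show the core beside genes of both directions, each 5′ to 3′ in the direction of its gene with the match in capitals, on the strand of the gene for Gsta3 and on the other strand for the rest. Gclm (chr3:122245403-122245451, plus strand), Prdx1 (chr4:116685446-116685494, plus strand) and Txnrd1 (chr10:82859094-82859142, plus strand) were higher in epithelium. Gsta3 (chr1:21240444-21240492, plus strand) was lower and Sod1 (chr16:90220686-90220734, plus strand) was not called.
Gclm: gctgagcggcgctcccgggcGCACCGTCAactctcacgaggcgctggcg
Prdx1: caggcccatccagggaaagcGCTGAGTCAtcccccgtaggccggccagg
Txnrd1: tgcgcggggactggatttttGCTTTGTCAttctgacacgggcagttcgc
Gsta3: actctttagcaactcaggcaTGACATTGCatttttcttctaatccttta
Sod1: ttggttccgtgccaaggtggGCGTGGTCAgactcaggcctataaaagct

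Of the 5 genes of glutathione supply and reduction, 4 were higher in epithelium and 1 was lower. Beside this count and those of the other roles below stand 26.1% of all genes called higher and 30.1% called lower. Slc7a11, the cystine importer that provides cysteine for glutathione, was 11.7, 22.7 and 29.2 normalized counts (lowest, median and highest) in epithelium. In stroma it was 0.408 in O1, 0.616 in O2, 0.383 in O3, 0.516 in Y1 and 1.18 in Y3. The layers did not overlap, and the log2 fold change was 5.14 (SE 0.31, adjusted p = 2.5e-11). Gss, the glutathione synthetase, was higher by a log2 fold change of 2.60 (adjusted p = 4.48e-05), although 15.4% of its exon bases overlap Acss2, Gssos1 or Gssos2. Gclm, the modifier subunit of glutamate-cysteine ligase, was higher by 1.42 (adjusted p = 0.000373). The catalytic subunit of that ligase, Gclc, was 6.20, 13.8 and 18.4 in epithelium and 14.2, 4.23, 13.3, 4.75 and 6.34 in the stroma of O1, O2, O3, Y1 and Y3. The stromal samples O1 and O3 lay within the epithelial range, and the log2 fold change of 0.70 (SE 0.29) was near the threshold (adjusted p = 0.0461), which it missed without O2, OM8, Y1, Y3, YF5 or YM4 (adjusted p up to 0.178). Gsr, which reduces oxidized glutathione, was lower in epithelium by a log2 fold change of -1.26 (adjusted p = 0.00404).

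Of the 4 alpha class transferases, 3 were higher in epithelium by more than 5 on the log2 scale and 1 was lower. Gsta4, which conjugates the lipid peroxidation product 4-hydroxynonenal, was 289, 467 and 644 normalized counts (lowest, median and highest) in epithelium. In stroma it was 5.13 in O1, 10.2 in O2, 13.8 in O3, 4.70 in Y1 and 6.38 in Y3. The log2 fold change was 5.74 (SE 0.36, adjusted p = 4.12e-11), and the 4 epithelial samples with a sex letter were lower (289 to 368) than the other 5 (467 to 644). Gsta2 was 5.17, 13.98 and 18.8 in epithelium and 0.0583 to 0.315 in stroma (log2 fold change 5.82, SE 0.38, adjusted p = 9.62e-11). Of its 50-base stretches, 49.8% also occur in other genes, Gsta1 among them. Gsta1, at 5.93 (SE 0.61, adjusted p = 1.03e-07), cannot be read apart from Gsta2, because 90.5% of its 50-base stretches also occur in other genes, Gsta2 among them. Gsta4, Gsta1 and Gsta2 lie next to each other on chromosome 9, between positions 78182774 and 78355788 of GRCm38. Gsta3, on chromosome 1, was lower in epithelium (log2 fold change -1.10, adjusted p = 0.0251), but with mouse as a block its adjusted p was 0.256, and it was not called without O3, Y1 or Y3 (adjusted p up to 0.221, with a log2 fold change of -0.67 without Y3).

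The 7 mu class transferases form a single cluster of 149.1 kb on chromosome 3, from 107895821 to 108044894. Along the chromosome, Gstm5 was not called, Gstm7 was lower in epithelium, Gstm6, Gstm3, Gstm2 and Gstm1 were higher, and Gstm4 was lower. Neighbors thus differed in direction, with the 4 higher members next to each other. Gstm6 differed by a log2 fold change of 4.09 (adjusted p = 1.18e-05), Gstm3 by 3.28 (adjusted p = 0.00025), Gstm2 by 2.22 (adjusted p = 3.95e-08) and Gstm1 by 0.78 (adjusted p = 0.00741). Gstm7 differed by -4.32 (SE 0.70, adjusted p = 2.73e-05) and Gstm4 by -1.62 (adjusted p = 0.00482). Gstm4 had 15.2 normalized counts in the stroma of O3 beside 1.11 to 4.70 in the other 4 stromal samples, and it was not called without O3 (log2 fold change -0.78, adjusted p = 0.127) or with mouse as a block (adjusted p = 0.185). Gstm3 shares 28.8% and Gstm1 18.9% of their 50-base stretches with other genes, so the split of reads among them is uncertain.

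Among the remaining transferases, Gsto1 stood apart. This omega class enzyme, which also reduces dehydroascorbate, was 135, 214 and 274 normalized counts (lowest, median and highest) in epithelium. The stromal values were 7.06 in O1, 8.50 in O2, 4.21 in O3, 7.17 in Y1 and 6.82 in Y3. It had the lowest p of all members, with a log2 fold change of 4.93 (SE 0.27, adjusted p = 6.92e-12). Gstp1, a pi class enzyme, was 9.30, 19.6 and 29.6 in epithelium and 16.6, 6.74, 6.39, 13.5 and 10.8 in the stroma of O1, O2, O3, Y1 and Y3. The layers overlapped, the log2 fold change was 0.94 (SE 0.27, adjusted p = 0.00561), and 33.7% of the 50-base stretches of Gstp1 also occur in Gstp2 or a pseudogene.

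Gstz1, the maleylacetoacetate isomerase of tyrosine breakdown, was 4.15, 4.96 and 5.97 in epithelium and 13.6, 20.01, 7.99, 14.2 and 29.7 in stroma in the same order of mice (log2 fold change -1.80, SE 0.24, adjusted p = 2.18e-06). The stroma of Y3, the highest in Gstz1, also had the highest sum of 5 adipocyte markers, 836 normalized counts beside 148 to 329 in the other 4 stromal samples. Gstt1 (log2 fold change -1.84) and Gstk1 (-1.10) were lower in epithelium too, the latter with an adjusted p of 0.109 with mouse as a block and up to 0.0743 without O1 or Y3. Of the microsomal enzymes, Mgst2 was higher in epithelium (3.65, SE 0.71) and Mgst3 was lower (-0.88, SE 0.21). Mgst1 was lower by -0.71 (adjusted p = 0.027), and its adjusted p was 0.175 with mouse as a block and 0.766 in the aged samples alone. It was not called without Y1 or Y3, with a log2 fold change of -0.35 without Y3 (adjusted p = 0.249). Mgst1 too was highest in the stroma of Y3, at 39.0 beside 7.99 to 17.9. The part of adipocyte RNA in these values was not tested.

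**Figure D2:**
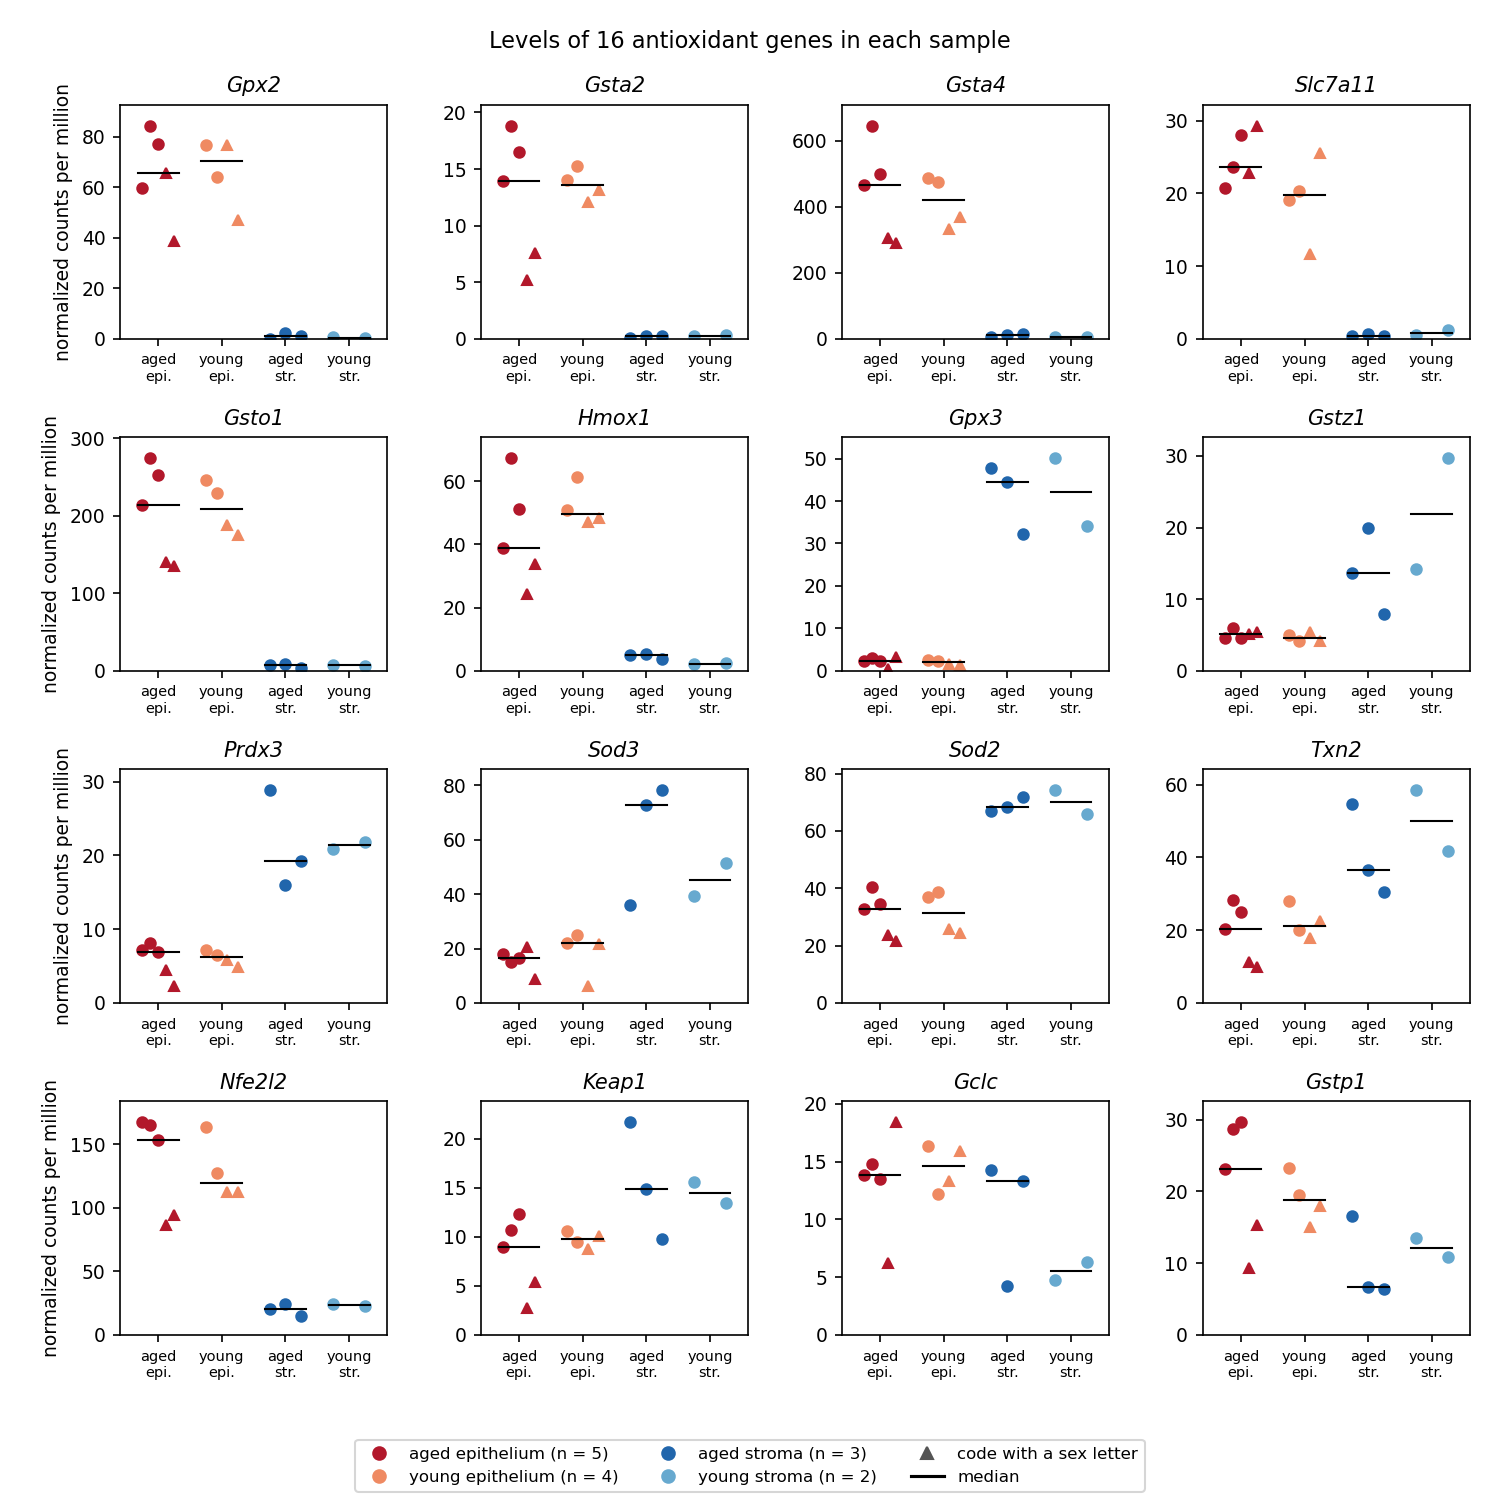
Normalized counts (CPM) of 16 members in each of the 14 samples, on linear axes from 0, with the group median as a line. Triangles mark epithelial samples whose mouse code carries a sex letter. Gsta4 and Gsto1 sit at 135 or higher in every epithelial sample and at 13.8 or lower in every stromal sample, while Keap1, Gclc and Gstp1 overlap between the layers.

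The 22 cytosolic and kappa transferases together summed to 592 to 1280 normalized counts in epithelium and 142 to 201 in stroma. Compared per kilobase of exon, Gsta4 made up 53.8% to 57.5% of the summed transferase level in the 9 epithelial samples and 4.02% to 9.57% in the 5 stromal samples. Gstm1, a detoxifying mu class enzyme, made up 10.96% to 16.6% in epithelium and 43.6% to 52.2% in stroma. Gsto1 held 15.2% to 19.4% of the epithelial sum. On this scale Gsta4, Gsto1 and Gstm1 were the 3 highest of all 60 members in epithelium, with medians of 369, 106 and 98.3 normalized counts per kilobase. Gstm1 and Gpx1 led in stroma, with medians of 54.7 and 32.4. The leading transferase differed between the layers, and the makeup varied little among the 9 epithelial samples, including those with a sex letter.

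**Figure D3:**
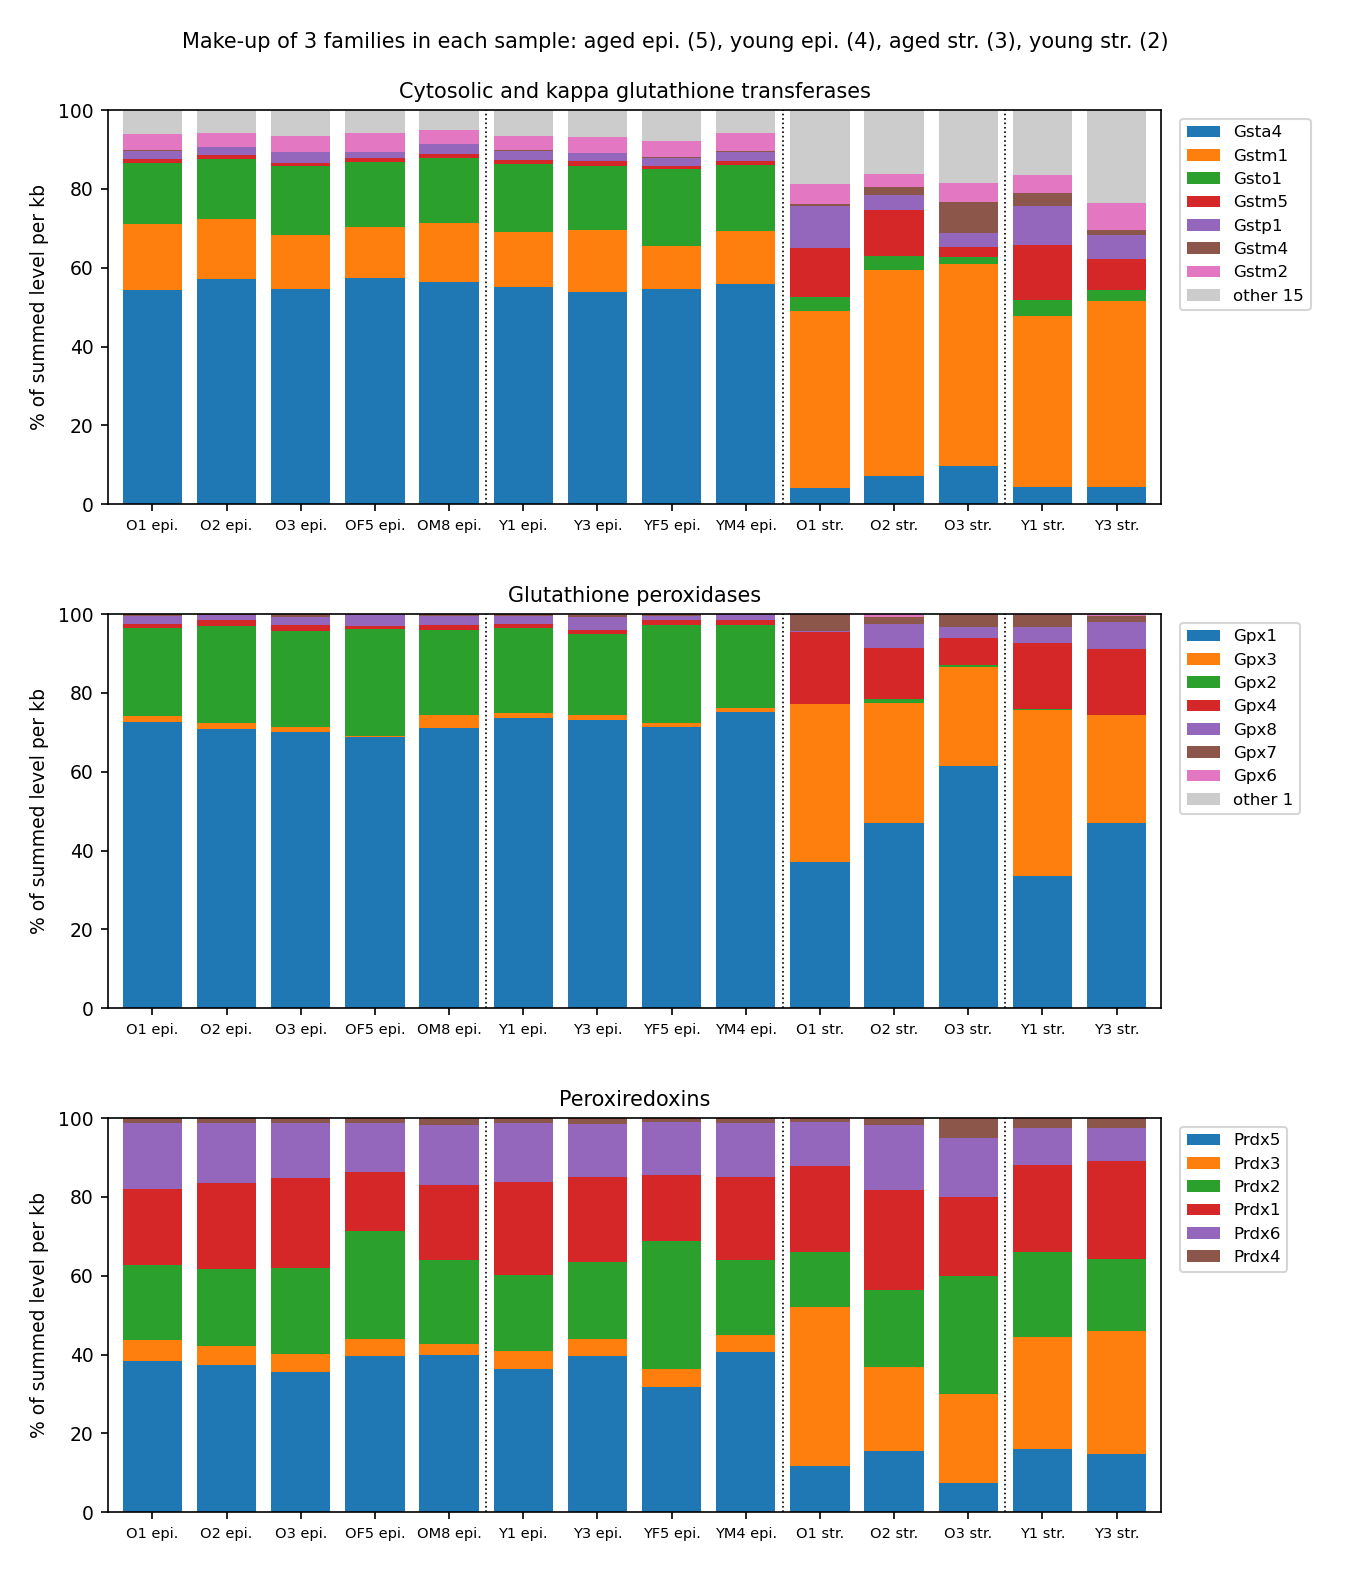
Share of each member in the summed level per kilobase of its family, in percent, for the transferases, the glutathione peroxidases and the peroxiredoxins, with 1 bar for each sample. Gsta4 takes 53.8% to 57.5% of the transferase sum in epithelium and Gstm1 takes 43.6% to 52.2% in stroma, while Gpx2 is prominent in epithelium and Gpx3 and Gpx4 in stroma, and Prdx5 takes a larger share in epithelium and Prdx3 in stroma.

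Of the 6 glutathione peroxidases tested, 2 were higher in epithelium and 3 were lower. Gpx2, the gastrointestinal selenoenzyme, was 38.7, 65.8 and 84.2 normalized counts (lowest, median and highest) in epithelium. In stroma it was 0 in O1, 2.42 in O2, 1.22 in O3, 0.5676 in Y1 and 0.355 in Y3. Its log2 fold change was 6.11 (SE 0.57, adjusted p = 1.63e-07), and the stromal samples of O2 and O3, which were highest in Gpx2, also had the highest sums of 8 differentiated keratinocyte markers (463 and 208, beside 36.1 to 68.1 in the other 3). The part of keratinocyte RNA in the stromal values was not tested. Gpx3, the secreted plasma enzyme, was 0.345, 2.38 and 3.30 in epithelium. The stromal values were 47.7 in O1, 44.4 in O2, 32.2 in O3, 50.1 in Y1 and 34.2 in Y3, for a log2 fold change of -4.16 (SE 0.23, adjusted p = 8.3e-12).

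Gpx4, which reduces lipid hydroperoxides in membranes, was lower in epithelium by a log2 fold change of -3.17 (SE 0.25, adjusted p = 1.37e-09), although 34.7% of its 50-base stretches also occur in pseudogenes. Gpx7, of the endoplasmic reticulum, was lower by -2.47 (adjusted p = 0.000563), and Gpx8 was not called (-0.61, adjusted p = 0.263). Gpx1, the abundant cytosolic enzyme, was 56.6, 98.8 and 119 in epithelium and 35.001, 54.4, 62.5, 31.5 and 46.7 in the stroma of O1, O2, O3, Y1 and Y3. The layers overlapped only slightly, and the log2 fold change was 0.99 (SE 0.20, adjusted p = 0.000344). Per kilobase, Gpx1 held 68.7% to 75.2% of the peroxidase sum in epithelium and 33.5% to 61.3% in stroma.

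Of the 6 peroxiredoxins, 4 were higher in epithelium and 1 was lower. Prdx5, found in mitochondria, peroxisomes and cytosol, differed by a log2 fold change of 2.36 (SE 0.20, adjusted p = 3.72e-09), although 19.1% of its exon bases overlap Trmt112. Prdx6, which also acts on phospholipids, differed by 1.06 (adjusted p = 0.000452), and the cytosolic Prdx2 and Prdx1 by 0.86 (adjusted p = 0.00207) and 0.68 (adjusted p = 0.00843). Prdx3, the mitochondrial peroxiredoxin, was 2.36, 6.51 and 8.15 normalized counts in epithelium and 28.8, 15.9, 19.3, 20.8 and 21.9 in the stroma of O1, O2, O3, Y1 and Y3. The layers did not overlap, with a log2 fold change of -1.79 (SE 0.22, adjusted p = 6.79e-07). Per kilobase, Prdx5 made up 31.6% to 40.7% of the peroxiredoxin sum in epithelium and 7.41% to 16.05% in stroma, and Prdx3 2.77% to 5.16% and 21.1% to 40.3%. Prdx4, of the endoplasmic reticulum (-0.19, adjusted p = 0.69), and Srxn1, which repairs overoxidized peroxiredoxins (0.12, adjusted p = 0.578), were not called.

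Of the 5 thioredoxin and thioredoxin reductase genes, 2 were higher in epithelium and 2 were lower. The cytosolic Txn1 was higher in epithelium (log2 fold change 1.52, SE 0.21, adjusted p = 4.51e-06), as was its reductase Txnrd1 (0.50, SE 0.16, adjusted p = 0.0132), although Txnrd1 was not called without O2, O3 or Y3 (adjusted p up to 0.0826). The mitochondrial Txn2 was 9.90, 20.4 and 28.3 normalized counts in epithelium and 54.6, 36.6, 30.4, 58.4 and 41.8 in the stroma of O1, O2, O3, Y1 and Y3 (log2 fold change -1.10, SE 0.22, adjusted p = 0.000291). Its reductase Txnrd2 was lower by -3.54 (SE 0.72, adjusted p = 0.000293), with 8.19 normalized counts in the stroma of O3 and 0.123 to 2.22 in the other 4 stromal samples. The layers overlapped in Txnrd2, and in O2 it was higher in epithelium, at 8 counts beside 3 in stroma. The stroma of O3 had the lowest stromal sum of skeletal muscle markers, 35935 normalized counts. Txnrd3, known from the testis, was not called.

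No superoxide dismutase was higher in epithelium. The mitochondrial Sod2 was 21.7, 32.8 and 40.3 normalized counts (lowest, median and highest) in epithelium and 66.9, 68.4, 71.9, 74.1 and 66.0 in the stroma of O1, O2, O3, Y1 and Y3. Its stromal values were the most even of the members described by sample, and the log2 fold change was -1.15 (SE 0.16, adjusted p = 3.92e-06). Of the 50-base stretches of Sod2, 21.0% also occur in other genes. Sod3, the extracellular enzyme, was 6.25, 18.0 and 24.9 in epithelium and 35.9, 72.8, 78.2, 39.4 and 51.4 in stroma (log2 fold change -1.68, SE 0.26, adjusted p = 1.27e-05). Catalase (Cat) had a log2 fold change of -0.995 (SE 0.23, adjusted p = 0.00111). The cytosolic Sod1 did not pass (-0.49, SE 0.21, adjusted p = 0.0578). Prdx3, Txn2 and Sod2, without overlap, and Txnrd2, with overlap, were higher in the layer with the skeletal muscle markers. The part of muscle in these values cannot be told apart from layer.

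Of the 4 heme oxygenase and quinone reductase genes, 2 were higher in epithelium and 1 was lower. Hmox1, the inducible heme oxygenase, was 24.5, 48.5 and 67.2 normalized counts in epithelium. In stroma it was 4.96 in O1, 5.30 in O2, 3.71 in O3, 2.06 in Y1 and 2.56 in Y3, for a log2 fold change of 3.67 (SE 0.28, adjusted p = 8.71e-10). Hmox2, the constitutive form, was not called (-0.42, adjusted p = 0.0946), and 40.2% of its exon bases lie in Cdip1. Nqo1, a classical Nrf2 target, was higher in epithelium (1.27, SE 0.23, adjusted p = 9.39e-05) and Nqo2 was lower (-2.84, SE 0.25, adjusted p = 6.1e-09), although 18.9% of the exon bases of Nqo2 overlap Serpinb6a.

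Other genes of the pathway were read from 5 further lists. Of 26 other known Nrf2 targets tested, 16 were higher in epithelium and 5 lower, beside 26.1% of all genes called higher and 30.1% called lower, with a median log2 fold change of 1.16 beside -0.05 over all genes. Ces2g (4.52), Abcc3 (4.16) and Cbr3 (3.59) led the higher and Aox1 (-3.93), Sqstm1 (-2.03) and Ephx1 (-1.48) the lower. Of 21 thiol and selenoprotein genes, 4 were higher, among them Sesn2 (1.84), and 12 lower, led by Selenow (-2.89), Msrb2 (-2.69) and Msrb3 (-2.60). Of 19 further genes of the glutathione cycle, 4 were higher, led by the gamma-glutamyltransferase Ggt6 (5.76) and the glutaredoxin Glrx (4.65), and 3 lower, among them the glutathione-degrading Chac1 (-3.20) and Ggt5 (-1.42). Of 10 partners and regulators of Nrf2, 2 were higher, the related factor Nfe2l3 (3.97) and Maff (1.85), and 4 were lower, led by Nfe2l1 (-2.78). Of 12 enzymes that produce oxidants, 4 were higher, led by the hydrogen peroxide producer Duox1 (5.16) and its maturation factor Duoxa1 (3.69), and 7 lower, led by the NADPH oxidase subunits Cyba (-2.44) and Nox4 (-2.20). Each list thus held members called in both directions, and the same shares of all genes, 26.1% higher and 30.1% lower, stand beside each of these counts.

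The next question was whether age changed these genes within the epithelium. Whether a code held a sex letter entered this fit as a covariate. Of 6 fibroblast markers, 3 had an unadjusted p under 0.05, with a median log2 fold change of -0.33 over the 6. Their sum was 280 to 454 in aged and 416 to 632 in young epithelium, on the scale of all 14 samples. So had 2 of 8 differentiated keratinocyte markers, with sums of 17962 to 49759 and 27796 to 54866. Both sums overlapped between the ages. No marker passed the adjusted threshold, and the part of these cell types was not tested. Of the 53 members tested in epithelium, edgeR called 0, beside 0.0132% of 15107 genes tested. An unadjusted p under 0.05 was found for 1 member, beside 3.36% of all genes. DESeq2 called 1 member, the same gene, beside 0.185% of all genes. The log2 fold changes of aged over young ran from -1.55 to 0.54, 52 of the 53 were under 1 in size, and the median SE was 0.20. On the scale of this comparison, Gsta4 was 351, 474, 374, 267 and 247 normalized counts in aged O1, O2, O3, OF5 and OM8 and 363, 361, 281 and 327 in young Y1, Y3, YF5 and YM4. The ages overlapped, with a log2 fold change of -0.03 (SE 0.14). Nfe2l2 was 126, 122, 115, 75.7 and 80.5 in the aged mice and 121, 96.9, 95.5 and 99.8 in the young mice, where Y1 stood apart from the other 3. Slc7a11 was 15.6, 17.3, 21.0, 19.8 and 24.9 in the aged mice and 14.2, 15.5, 9.90 and 22.7 in the young mice. The ages overlapped for both genes. Nfe2l2 differed by -0.06 (SE 0.13), Keap1 by -0.27 (SE 0.23), Gclc by -0.10 (SE 0.20), Gstp1 by 0.09 (SE 0.18) and Slc7a11 by 0.34 (SE 0.18).

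The member with the lowest p was Gstm3, a mu class transferase. It was 2.43, 3.23, 3.41, 1.20 and 0 normalized counts in aged O1, O2, O3, OF5 and OM8. In young epithelium it was 6.50 in Y1, 8.36 in Y3, 2.12 in YF5 and 5.83 in YM4. Within each form of the code every aged sample lay below every young one, although the forms together overlapped. The log2 fold change was -1.55 (SE 0.35, unadjusted p = 0.00042, rank 17 of 15107), and the adjusted p of 0.371 did not pass. DESeq2 gave -1.66 with an adjusted p of 0.00782, and edgeR without a filter on low counts gave -1.53 with an adjusted p of 7.65e-05. The 5 mice with both layers alone gave -1.30 (SE 0.20, adjusted p = 0.0782). The value of 0 in OM8 allows up to 0.602 normalized counts, and the 4 shallow samples held 0 to 19 counts of Gstm3. Reads shared with Gstm1, Gstm6 and pseudogenes make its level uncertain. No member was called with Gstm3 summed into other mu class genes, but Gstm3 was then not tested on its own. That result therefore says nothing about Gstm3.

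Gpx1 and Hmox1 followed. Gpx1 was 65.4, 79.2, 74.8, 64.9 and 48.2 in the aged mice in the order above and 88.02, 77.2, 83.8 and 67.2 in the young mice (log2 fold change -0.28, SE 0.14, unadjusted p = 0.0529). Aged values of Hmox1 were 29.3, 49.5, 38.4, 21.3 and 28.9, and the young ones were 37.7, 46.7, 40.0 and 43.0 (-0.35, SE 0.17, unadjusted p = 0.0548). The ages overlapped in both, and the adjusted p was 0.999 for each. None of the 5 further lists held a gene that edgeR called by age in epithelium, and 8 of their 84 genes tested had an unadjusted p under 0.05.

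**Figure D4:**
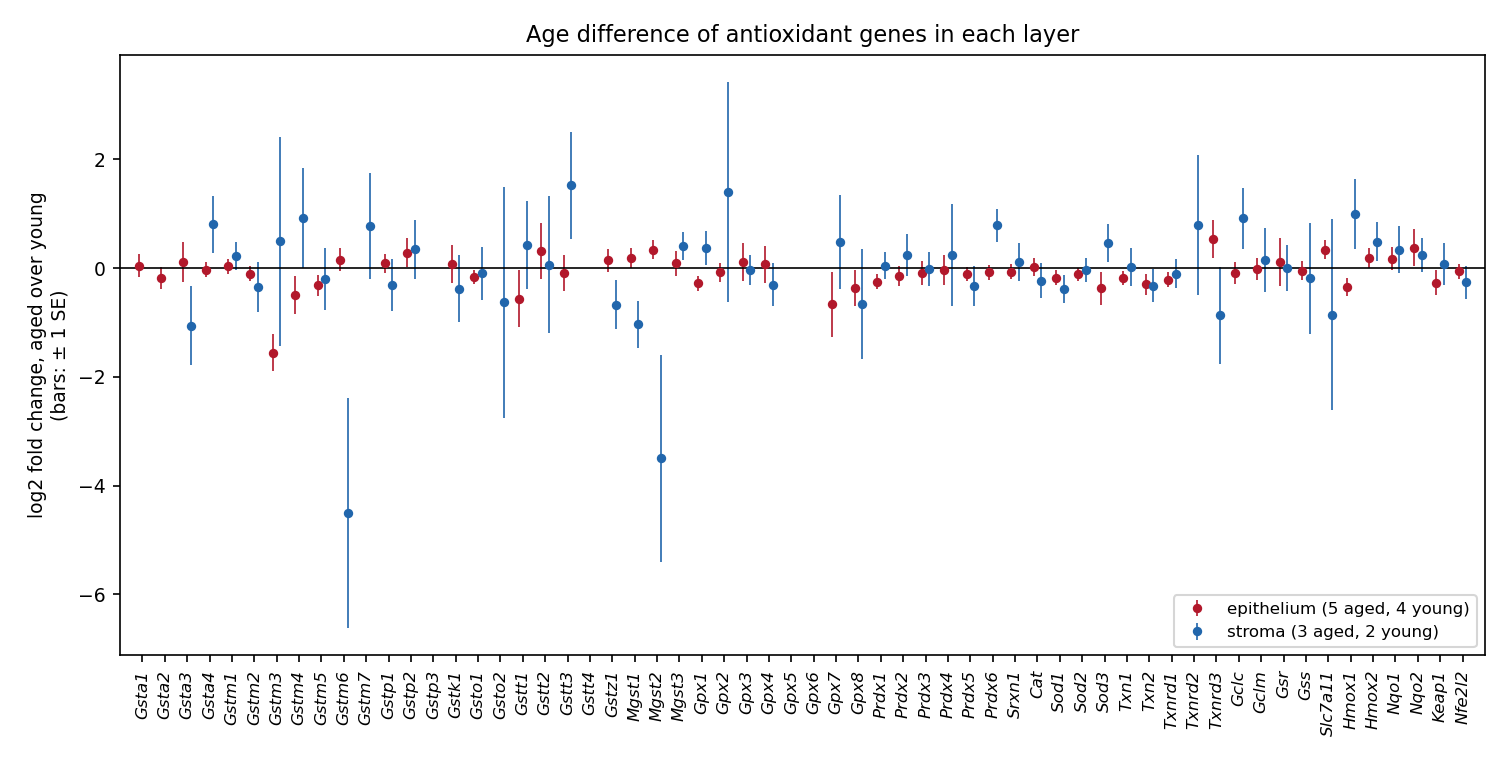
Log2 fold change of aged over young for each member tested, in epithelium (red, 5 aged and 4 young samples) and stroma (blue, 3 aged and 2 young samples), with bars of 1 SE. No member was called in either layer. Gstm3 lies lowest in epithelium at -1.55, and the stromal bars are wider, as for Gstm6 at -4.50 with an SE of 2.11.

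In stroma the question was the same, with fewer mice. Several marker lists moved with age in these 5 samples. The sum of 5 smooth muscle markers was 941, 2051 and 816 normalized counts on the scale of all 14 samples in aged O1, O2 and O3 and 303 and 599.9 in young Y1 and Y3, and 4 of the 5 had an unadjusted p under 0.05. The basal keratinocyte sum was 20.5, 40.3 and 63.5 in the aged and 15.4 and 14.9 in the young samples, with 3 of 6 markers under that p, all higher in aged stroma. The sum of 4 Schwann cell markers was 10.7, 21.4 and 36.1 in the aged and 61.8 and 44.7 in the young samples, with 1 of 4 under that p. These 3 sums did not overlap between the ages. The adipocyte sum was 152, 148 and 329 in the aged and 198 and 836 in the young samples, which overlapped, and 4 of its 5 markers were lower in aged stroma at that p. No marker passed the adjusted threshold, and the part of these cell types in the values that follow was not tested. Of 54 members tested among 3 aged and 2 young samples, edgeR called 0, beside 0% of 21323 genes tested. An unadjusted p under 0.05 was found for 2 members, beside 3.64% of all genes. DESeq2 called 0 members, beside 0.00938% of all genes. The log2 fold changes ran from -4.50 to 1.52, and the median SE was 0.47. Prdx6 was 38.2, 60.5 and 63.3 normalized counts in aged O1, O2 and O3 and 33.8 and 28.5 in young Y1 and Y3, on the scale of this comparison. The aged samples lay above the young ones, with a log2 fold change of 0.79 (SE 0.30, unadjusted p = 0.0266, adjusted p = 0.99996). Prdx6 was highest in O2 and O3, which also had the highest stromal sums of differentiated keratinocyte markers, 463 and 208 on the scale of all 14 samples. In the epithelium of these mice those sums were 49680 and 49759. Prdx6 was higher in epithelium than in stroma by a log2 fold change of 1.06. The part of keratinocyte RNA in Prdx6 was not tested. Aged values of Mgst1 were 23.5, 27.0 and 12.02, and the young ones were 26.3 and 58.6 (-1.03, SE 0.43, unadjusted p = 0.039). Without Y3, the sample rich in adipocyte markers, Mgst1 differed by -0.36 (SE 0.58). Nfe2l2 was 30.4, 36.7 and 22.0 in the aged and 36.9 and 34.2 in the young stroma (log2 fold change -0.26, SE 0.31). Gsta4 was 7.53, 15.4 and 20.8 in the aged and 7.05 and 9.58 in the young stroma (0.81, SE 0.53). The ages overlapped for both. Gclc (0.92, SE 0.56), Gstp1 (-0.31, SE 0.48), Keap1 (0.08, SE 0.38) and Slc7a11 (-0.85, SE 1.76) did not pass either. EdgeR called none of the 88 further list genes tested in stroma, of which 3 had an unadjusted p under 0.05.

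The last question was whether the age difference itself differed between the layers. Among the 10 samples of mice that gave both tissues, 57 members were tested for the interaction and edgeR called 0, beside 0% of 22771 genes tested. An unadjusted p under 0.05 was found for 8 members, beside 4.3% of all genes. DESeq2 called 2 members, Gstm6 and Mgst2, beside 0.272% of all genes. Of 89 further list genes tested, edgeR called 0 and 5 had an unadjusted p under 0.05. The 3 members with the lowest p, Gstm6, Gsta1 and Mgst2, shared a pattern: their counts were higher in each young stromal sample than in each aged one, and epithelium of both ages lay above all stroma. Gstm6 had 0, 1 and 1 counts in the stroma of O1, O2 and O3 and 16 and 17 in that of Y1 and Y3. Gsta1 had 0, 2 and 0 counts in aged and 11 and 8 in young stroma. Most of the sequence of Gsta1 is shared with other genes, so these counts are uncertain, and Gsta2 had 1, 6 and 6 counts in aged and 5 and 8 in young stroma, with an interaction term of 0.78 (SE 0.62, unadjusted p = 0.233). Mgst2 had 1, 0 and 12 counts in aged and 39 and 52 in young stroma.

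Per scaled library, young stroma exceeded aged stroma 25.01-fold in Gstm6 (95% interval 6.40 to 215), 14.4-fold in Gsta1 (3.47 to 127) and 10.6-fold in Mgst2 (5.90 to 20.7). These exact intervals cover counting error only and not the spread between mice. They test nothing further, because the 3 genes were picked for the lowest interaction p in these same counts. The interaction terms were 4.68 for Gstm6 (SE 0.83, adjusted p = 0.3), 3.85 for Gsta1 (SE 0.89, adjusted p = 0.661) and 3.46 for Mgst2 (SE 1.05, adjusted p = 0.99997) on the log2 scale, where a positive value means a higher ratio of aged to young in epithelium than in stroma. Without O2 the term of Gsta1 was 6.49 (adjusted p = 0.317), and without O3, which held 12 of the 13 aged stromal counts of Mgst2, that of Mgst2 was 6.14 (adjusted p = 0.239). In the stroma alone, Gstm6 differed by -4.50 (SE 2.11, unadjusted p = 0.0597). Among the marker sums, that of Schwann cells was also higher in each young stromal sample than in each aged one, 44.7 to 61.8 beside 10.7 to 36.1. The differentiated keratinocyte sum was 36.1 to 463 in the aged and 36.1 to 68.1 in the young stroma, and the adipocyte sum 148 to 329 and 198 to 836. The part of these cell types in the 3 genes was not tested. The stromal counts of Gstm6 are at most 17, and 5.97% of its 50-base stretches also occur in Gstm3 or pseudogenes.

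**Figure D5:**
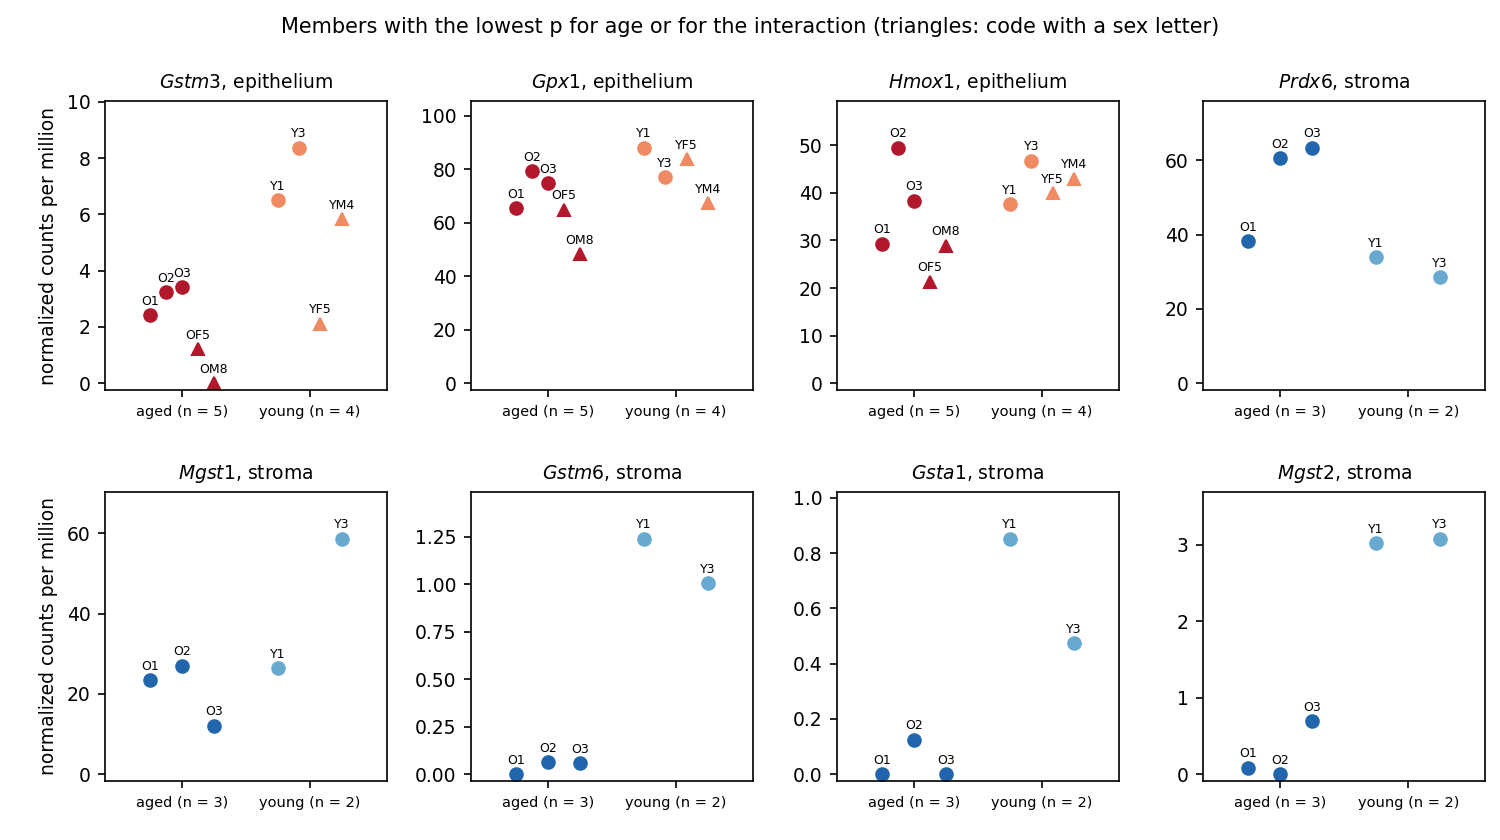
Normalized counts (CPM), on the scale of each age comparison, of the members with the lowest p for age or for the interaction, with each point labelled by its mouse. Triangles mark codes with a sex letter. Gstm3 is lower in aged epithelium within each form of code, and Gstm6, Gsta1 and Mgst2 are at or below 0.690 in aged stroma and above it in young stroma except for Gsta1 of Y3 at 0.473.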

How the data were processed

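RNA-Seq of 14 bulk samples (9 epithelium, 5 stroma) from 9 mice was analysed. The authors aligned reads to GRCm38.p6 with Rsubread and deposited gene counts from featureCounts as whole numbers. The annotation release, the strand setting and the treatment of multi-mapping reads are not given in the sources used here. The members and gene lists were chosen with earlier results of these data known.

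Layers were compared over all 14 samples, without a term for mouse, and ages within each layer, with the form of the mouse code (sex letter or none) as a covariate in epithelium. The interaction of age and layer was fitted over the 10 samples of mice that gave both tissues. Each fit used the edgeR 4.0.16 quasi-likelihood test (R 4.3.3) with TMM scaling, filterByExpr at a minimum count of 10 and Benjamini-Hochberg adjustment over all genes tested, at a threshold of 0.05. The script was tested on simulated data. SE was taken from the fold change and its F statistic. DESeq2 1.42.0 was an alternative. Deposited counts of replicates differed by more than sampling noise in all 20 pairs (chi-square per degree of freedom at least 11.96). P-values of the age comparisons within a layer measure the spread between mice. Those of the layer and interaction fits measure the spread between samples and ignore which samples come from the same mouse. Intervals cover counting error only. The depth sets 3 counts at 0.0872 to 1.25 normalized counts.

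Members described by sample were the 6 called members with the largest log2 fold change between layers in each direction among those whose mean log2 CPM reached 3, the 3 with the lowest p in each age comparison and in the interaction, and Nfe2l2, Keap1, Gclc, Gsta4, Gstp1 and Slc7a11. Of each further gene list, at most the 3 largest called changes in each direction were named. Gene lengths and overlaps came from GENCODE M21. Epithelium and stroma of a mouse are from the same animal by the labels, so mouse was a block in an alternative. Their deviations from the group means correlated at 0.0519 to 0.122 over genes. Mice of both ages that share a number are different animals.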

Additional observations from a re-analysis of the deposited data

Results flagged for a closer look

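Nfe2l2 in the epithelium of young mouse Y1 stood apart from its group. It was 121 normalized counts on the scale of the age comparison, beside 95.5 to 99.8 in the other 3 young mice, and its gap took 0.833 of the range of the group. It was 1 of 46 checks of 23 members in the aged and the young epithelium, and chance flags about 1 in 20.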

How the results depend on the processing

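The count of members called between the layers was 45 of 56 tested, beside 56.2% of all genes tested. It stayed within 1.5 times of 45 under DESeq2 (46, beside 59.7%), upper quartile scaling (47, beside 56.6%) and no count filter (42, beside 28.3%). With Gsta1 and Gsta2 summed, Gstp1 to Gstp3 summed, and Gstm1, Gstm2, Gstm3, Gstm6 and Gstm7 summed, 40 of 50 were called, beside 56.2%. Not all of these are near copies. Gstm7 shares 0.532% of its 50-base stretches with other genes, and it went the opposite way to Gstm6. With at least 10 counts in every sample, 29 members were tested and 25 called, 14 higher and 11 lower, beside 64.3% of all genes. Leaving out each mouse gave 40 to 45 called, 23 to 25 higher and 17 to 21 lower, beside 49.3% to 56.8% of all genes. With mouse as a block, which pairs the layers of the same animal, 40 were called (25 higher and 15 lower), beside 51.4%. Of the main calls, Gsta3, Gstk1, Gstm4, Keap1 and Mgst1 were lost under the block. In 2 alternatives chosen after seeing the data, the aged samples alone gave 32 called (16 higher and 16 lower), beside 40.4% of all genes. The young samples alone gave 39 (25 higher and 14 lower), beside 44.7%. Between the layers, the sign turned for 3 members, none of them called in the main comparison. Prdx4 was 0.292 without O3, 0.249 with the block and 0.0829 in young samples, and leaving out each mouse gave -0.404 to 0.292. Srxn1 was -0.196 with the stricter filter and -0.0304 without Y3, in a range of -0.0304 to 0.197. Txnrd3 was 0.0260 in aged samples. The cause was not tested.

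For age in epithelium, DESeq2 and edgeR without a filter each called 1 member, and leaving out each mouse gave 0 to 0. Over all genes the counts were 28 and 36, beside 2. For age in stroma each alternative called 0 members, and leaving out each mouse gave 0 to 0. For the interaction DESeq2 called 2 members and edgeR without a filter 3, and leaving out each mouse gave 0 to 0. Over all genes the counts were 62 and 98, beside 0. A block on the number in the mouse code, which pairs no animals, called 0 members for age in either layer, and the mouse block called 0 for the interaction.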
